A study of Rattus norvegicus with 12 samples.

Results

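The 10 genes described here are the cytokine gene Tnf and 9 genes of the NF-kB loop that its signal switches on. The 9 are Nfkbia, Nfkbiz, Nfkbie, Tnfaip3, Tnip1, Relb, Nfkb1, Nfkb2 and Birc3, several of which act to hold that signal back. The 10 genes were taken by gene symbol as the array annotation gives it, and 16 probes carried 1 of these symbols. Of these, 14 probes were kept after the filter on dim probes, and all 10 genes had at least 1 kept probe, among 16382 genes tested.

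The samples were calvarial bone (the flat bone of the skull roof) of 10-week-old rats, collected 24 h after surgery and measured on 12 single-colour arrays, 4 in each of 3 groups. Bur bone had a rectangle of 8 by 3 mm cut into it by a rotating bur that was moved at about 0.75 mm/s. Laser bone had an equal defect ablated in 3 strokes by an Er:YAG laser, which emits infrared light that water absorbs strongly, set to 20 Hz with an output of 127 mJ per pulse and moved at about 2 mm/s. Control bone lost only its periosteum, the membrane that covers bone, so that all 3 groups had surgery. Strain and sex were not given in the sources used here. How many animals stand behind the samples was not given either, so p-values measure only the spread between samples, which may be technical.

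TNF binds its receptors on the cell surface, and an adaptor complex then activates the IKK kinases. These mark the IkB inhibitors for destruction, which frees dimers of the Rel family, the NF-kB transcription factors, to enter the nucleus. Among the genes that NF-kB switches on are those of its own inhibitors and of enzymes that take the receptor complex apart, so their transcripts are often read as a trace of the pathway in inflamed tissue, bone included.

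Levels are log2 of the quantile-normalized intensity, where a step of 1 is a doubling. Calls were made in 1 limma fit over all 12 arrays and 16382 genes, with a Benjamini-Hochberg adjusted p of less than 0.05. As a check of the tissue label, the osteoblast gene Bglap (osteocalcin) averaged 16.07 in bur, 16.35 in laser and 15.70 in control bone. Of 12 osteoblast and osteocyte markers, all tested, 4 were called higher in bur and 6 in laser than in control bone, none lower. Over all genes 13.7% and 18.3% were called higher in these comparisons. Such calls compare groups and do not check the label. Laser arrays were brighter before normalization, with a median processed signal of 67.1 ± 11 (SD, n = 4), against 22.3 ± 4.18 on bur arrays and 28.7 ± 12.4 on control arrays. All laser arrays lay on a slide of their own that was scanned separately, whereas bur and control arrays shared the other slide in separate columns. In both comparisons that involve the laser group, slide and treatment therefore cannot be told apart. In bur against control bone, slide column and treatment cannot be told apart either. Summed neural markers spread from 1191 to 2731 intensity units on bur arrays, from 1234 to 3009 on laser arrays and from 1066 to 12392 on control arrays, where controls 1 and 4 were high.

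To show the DNA at which this loop is usually thought to close, the bases just before the transcription start are given for the 5 genes with a match to the NF-kB consensus within 120 bases upstream. They are from RefSeq, rat assembly GRCr8, read 5′ to 3′ along the strand of the gene. Capitals mark the match, and where the motif lies on the opposite strand its reverse complement is seen. The windows are chr6:78597073-78597192 (minus strand) for Nfkbia, chr11:58251601-58251720 (plus) for Nfkbiz, chr1:15543980-15544099 (minus) for Tnfaip3, chr10:39584962-39585081 (minus) for Tnip1 and chr1:255108254-255108373 (plus) for Nfkb2.
Nfkbia: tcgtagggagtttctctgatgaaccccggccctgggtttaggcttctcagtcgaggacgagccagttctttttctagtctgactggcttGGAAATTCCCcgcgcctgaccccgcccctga
Nfkbiz: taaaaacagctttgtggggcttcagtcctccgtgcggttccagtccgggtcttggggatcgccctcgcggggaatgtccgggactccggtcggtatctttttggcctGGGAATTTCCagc
Tnfaip3: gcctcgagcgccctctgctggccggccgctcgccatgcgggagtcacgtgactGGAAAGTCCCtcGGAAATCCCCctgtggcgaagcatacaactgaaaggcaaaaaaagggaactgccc
Tnip1: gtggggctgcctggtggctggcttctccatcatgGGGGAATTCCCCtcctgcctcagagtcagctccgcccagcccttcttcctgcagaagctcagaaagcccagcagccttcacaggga
Nfkb2: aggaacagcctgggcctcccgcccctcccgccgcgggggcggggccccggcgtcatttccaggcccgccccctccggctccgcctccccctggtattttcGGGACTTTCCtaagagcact

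Of the 10 genes, 8 had a promoter entry, from 250 bases before to 50 after the start, and both strands were searched. The NF-kB consensus was searched as GGGRNNYYCC, where R is A or G, Y is C or T and N is any base. It stood in 7 of these 8 windows, against 7.51% of 33469 windows of that length. The window without a match was that of Tnf. Overlapping and palindromic matches, as in Tnip1, were kept as separate matches, and both spelled-out motifs below are cases of the consensus. GGGAATTTCC was found for Nfkbia, Nfkbiz and Nfkb1, against 0.0747% of all windows, and GGGACTTTCC for Tnfaip3 and Nfkb2, against 0.111%. The match of Nfkb1 began 4 bases after the start, and that of Nfkbie 164 bases before it. Nfkb2 carries the motif 20 bases upstream, Nfkbiz 13 and Nfkbia 31. These are letter matches in a window, and no binding was measured.

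The first comparison asks what bur drilling did to the loop relative to periosteum removal alone. After bur drilling 9 of the 10 genes rose, by 1.84-fold (Nfkb1) to 5.33-fold (Tnf), none fell and Nfkb2 was not called. Over all genes 13.7% were called higher and 9.74% lower, 23.4% in all. The median log2 fold change of the 10 genes was 1.56, beside 0.08 over all genes tested. In the same 9 genes every bur array lay above every control array, as it did for 13.5% of all genes.

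**Figure D1:**
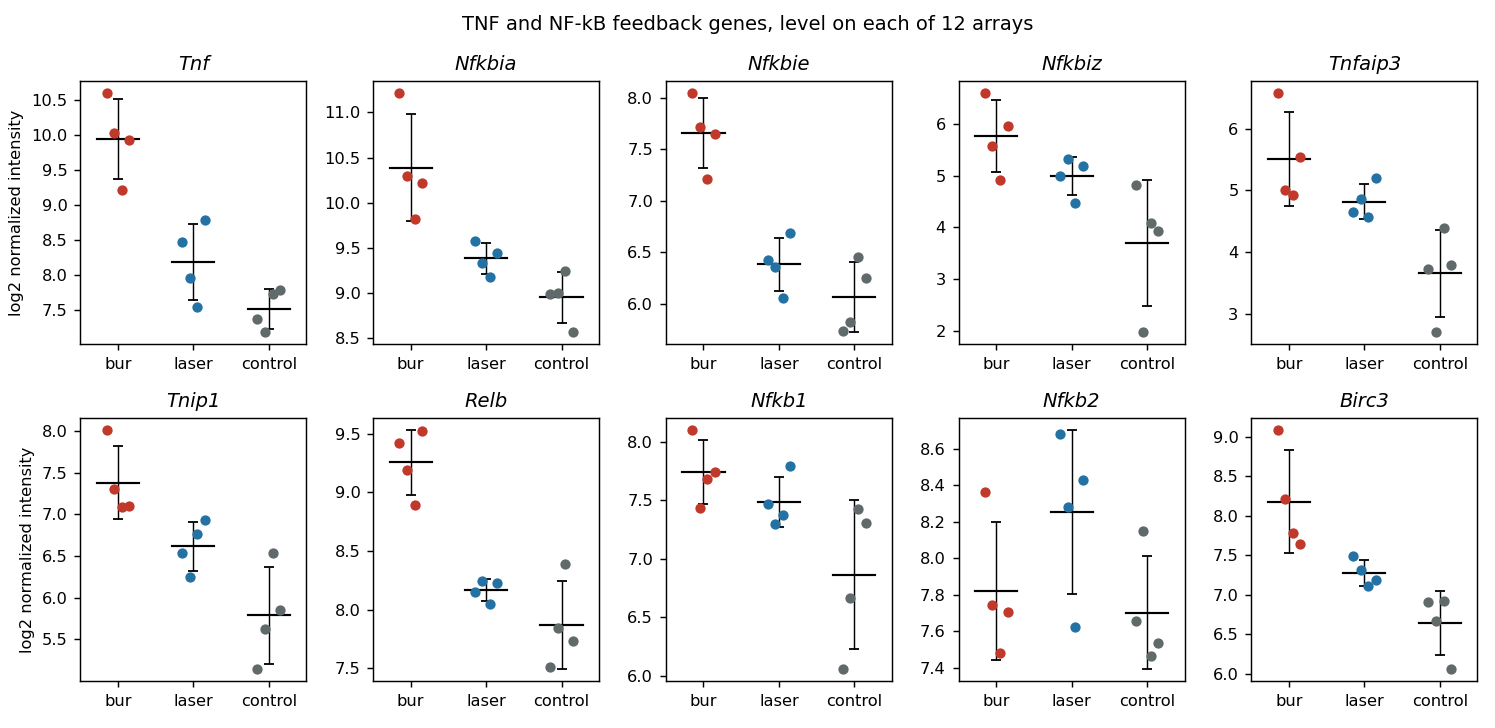
Level of each of the 10 genes (y axis, log2 normalized intensity, a scale of its own for each gene) on the 4 bur, 4 laser and 4 control arrays (points), with the group mean (bar) and SD (whisker). Bur arrays stand above control arrays without overlap in 9 genes. Nfkb2 overlaps in all 3 groups.

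Tnf, the ligand itself, was read by a probe at chr20:3663558-3663617 (rn4, plus strand). Its level was 10.60, 10.02, 9.22 and 9.93 on the bur arrays, against 7.39, 7.19, 7.74 and 7.78 on the control arrays. The lowest bur array stood well over a doubling above the highest control array. The log2 fold change was 2.42 ± 0.32 (SE), or 5.33-fold with a 95% interval of 3.29 to 8.64, and the adjusted p from limma was 0.000611. An exact two-sided permutation test over the 8 arrays gave 0.0286, the smallest p that 70 splits allow. A second Tnf probe was well above background on 3 of 12 arrays and was not tested.

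The IkB genes encode proteins that keep NF-kB dimers out of the nucleus or act on them inside it. Nfkbia, which encodes the classical inhibitor IkB alpha, measured 11.22, 10.30, 9.82 and 10.22 on bur arrays, against 8.99, 9.0, 9.25 and 8.57 on control arrays. The rise was 2.71-fold (log2 1.44 ± 0.26, adjusted p 0.00294), and the first bur array was about a doubling above the other 3. Nfkbie, for IkB epsilon, measured 8.05, 7.72, 7.21 and 7.65 on bur arrays, against 5.73, 5.82, 6.45 and 6.25 on control arrays. It rose 3.01-fold (log2 1.59 ± 0.22, adjusted p 0.000761) and its bur arrays spanned less than a doubling.

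Nfkbiz encodes IkB zeta, a nuclear member of the family that works with the p50 subunit at secondary targets such as Il6. It measured 6.59, 5.58, 4.92 and 5.95 on bur arrays, against 4.81, 1.98, 4.09 and 3.94 on control arrays. The groups did not overlap, but the highest control lay just under the lowest bur array, and control 2 was not well above background. The rise was 4.15-fold (log2 2.05 ± 0.54, adjusted p 0.0178), and 3.42-fold when that array was raised to the lowest signal well above background. Without bur array 1 the adjusted p was 0.0504, and with only the 8 arrays of both groups in the fit it was 0.056.

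Tnfaip3 encodes A20, an enzyme that edits ubiquitin chains on the TNF receptor complex, and Tnip1 encodes ABIN-1, a partner that brings A20 to those chains. Tnfaip3 measured 6.58, 5.0, 4.93 and 5.55 on bur arrays, against 3.73, 2.70, 4.39 and 3.80 on control arrays. It rose 3.63-fold (log2 1.86 ± 0.40, adjusted p 0.0071), with control 2 again not well above background, and 3.39-fold with that array raised to the limit. Tnip1 measured 8.02, 7.31, 7.09 and 7.10 on bur arrays, against 5.15, 5.63, 6.54 and 5.85 on control arrays. It rose 3.00-fold (log2 1.59 ± 0.30, adjusted p 0.00355), and control 3 stood nearest to the bur arrays.

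The Rel family and its precursors gave an uneven picture. Relb, the subunit that pairs mainly with p52 in the alternative pathway, measured 9.42, 9.19, 8.90 and 9.52 on bur arrays, against 7.51, 7.84, 8.39 and 7.73 on control arrays. It rose 2.62-fold (log2 1.39 ± 0.19, adjusted p 0.00082). Nfkb1, for the p105 precursor of p50, measured 8.10, 7.44, 7.68 and 7.74 on bur arrays, against 6.06, 6.66, 7.43 and 7.31 on control arrays. The lowest bur array barely cleared the highest control. The rise was 1.84-fold (log2 0.88 ± 0.28, adjusted p 0.0421), a call lost in 17 of 22 other settings. Nfkb2, for the p100 precursor of p52, measured 8.36, 7.74, 7.48 and 7.71 on bur arrays, against 7.66, 8.15, 7.47 and 7.54 on control arrays. The groups overlapped almost wholly. Its log2 fold change was 0.12 with a 95% interval of -0.45 to 0.69 (adjusted p 0.772), which leaves room for a change of up to about 1.61-fold upward.

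Birc3 encodes cIAP2, a ubiquitin ligase that is recruited to the TNF receptor complex and is itself a target of NF-kB. It measured 9.09, 8.21, 7.78 and 7.65 on bur arrays, against 6.91, 6.66, 6.93 and 6.06 on control arrays. It rose 2.91-fold (log2 1.54 ± 0.30, adjusted p 0.00412), and bur array 1 stood highest. That array was the highest of its group for all of the 10 genes except Relb, and without it 7 genes were called, Nfkbiz and Nfkb1 being lost. Without controls 1 and 4, those with high neural markers, 8 of the 10 genes were called higher, against 6.84% of all genes.

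The sizes of these fold changes depend on how background was handled, most for the dim probes. With normexp, a background model with an added offset of 50, Tnfaip3 rose 1.36-fold and Nfkbiz 1.56-fold, and both stayed called (adjusted p 0.0384 and 0.00657). Under that setting Tnf rose 4.22-fold. In the authors' deposited table the log2 fold changes were 2.33 for Tnf, 0.81 for Tnfaip3 and 1.03 for Nfkbiz.

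Markers of monocytes and macrophages, cells that make TNF, moved with the same comparison. Of 12 such markers, all of them tested, 10 were called higher and none lower in bur bone. Their summed intensity was 97936 to 136674 on bur arrays, against 55560 to 84874 on control arrays, with no overlap. Such sums add intensities off the log scale, so the brightest markers weigh most in them. Lyz2, the brightest here, averaged 16.26 on bur and 15.77 on control arrays and was not called (adjusted p 0.104 from limma). In tissue RNA, more cells of a type and more RNA per cell cannot be told apart. Neutrophil markers summed to 39047 to 65725 on bur arrays, against 58467 to 81577 on control arrays, with 1 of 10 called higher and 1 lower. Erythroid markers, of red cell precursors, moved as a whole: all 8 were called lower in bur bone, with sums of 44024 to 92334 on bur arrays, against 150912 to 177198 on control arrays and no overlap. Of the tested markers of other cell types, 3 of 7 neural ones were called lower, 2 of 7 T cell and 1 of 6 skeletal muscle ones higher, and none of 6 B cell ones. Over all genes 13.7% were called higher and 9.74% lower. Of the neural calls, Gfap and Slc1a2 were well above background on no bur array. They passed the filter on dim probes through laser and control arrays alone, so these calls support nothing. The part of any of these cell types in the rise of the 10 genes was not tested.

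The second comparison sets laser ablation against the same 4 control arrays. By the probe used for each gene, all 10 log2 fold changes were above 0, with a median of 0.63 beside 0.01 over all genes, but 1 of the 10 genes was called, Tnfaip3. Over all genes 18.3% were called higher and 16.2% lower, 34.4% in all, so a single call among 10 lies under the share of all genes. Because the control arrays are shared with the first comparison, the signs in the 2 comparisons are not independent.

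Tnf measured 8.48, 7.96, 7.55 and 8.78 on laser arrays, against 7.39, 7.19, 7.74 and 7.78 on control arrays. Laser arrays 1, 2 and 4 lay above all controls and laser array 3 lay among them. The log2 fold change was 0.67 ± 0.32 (SE), or 1.59-fold with a 95% interval of 0.98 to 2.57 (adjusted p 0.125 from limma). The exact permutation test gave 0.114. A rise of more than 2.57-fold lay outside the interval, and no change lay just inside it.

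Tnfaip3 measured 4.65, 4.85, 4.57 and 5.21 on laser arrays, against 3.73, 2.70, 4.39 and 3.80 on control arrays. The groups did not overlap, and the gene rose 2.24-fold (log2 1.16 ± 0.40, adjusted p 0.0432 from limma). This call was lost in 14 of 21 other settings. Under normexp the log2 fold change was 0.25 (adjusted p 0.212), and without control 2, laser 1, laser 2, laser 4, bur 4 or control 4 no gene of the 10 was called. Without bur 1 or without control 3, in turn, 3 of the 10 were called.

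Tnip1 came nearest to a call among the rest, at 6.54, 6.25, 6.76 and 6.93 on laser arrays, against 5.15, 5.63, 6.54 and 5.85 on control arrays. Its log2 fold change was 0.83 ± 0.30 with an adjusted p of 0.0507. Nfkbiz, at 5.0, 5.31, 4.48 and 5.19 on laser arrays, had the greatest log2 fold change of the 10 genes, 1.29 ± 0.54, with a 95% interval of 0.11 to 2.46 and an adjusted p of 0.0842. Neither group pair was fully separate, because control 3 reached into the laser range for Tnip1 and control 1 for Nfkbiz. Raising the dim control array to the limit brought Nfkbiz to 2.01-fold.

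Birc3 measured 7.49, 7.32, 7.11 and 7.19 on laser arrays, all above the highest control at 6.93, yet its log2 fold change of 0.64 ± 0.30 was not called (adjusted p 0.119). Nfkb2 measured 8.68, 8.28, 7.63 and 8.43 on laser arrays and had a log2 fold change of 0.55 ± 0.26 (adjusted p 0.119). In the authors' deposited table Nfkb2 and Birc3 were both significant here, with log2 fold changes of 0.65 and 0.71 and adjusted p of 0.00749 and 0.0212. Fitted with the deposited values and the design used here, their adjusted p was 0.0359 and 0.0444. For Nfkb1, Nfkbia, Nfkbie and Relb the log2 fold changes lay between 0.30 and 0.62, with adjusted p from 0.106 to 0.285.

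**Figure D2:**
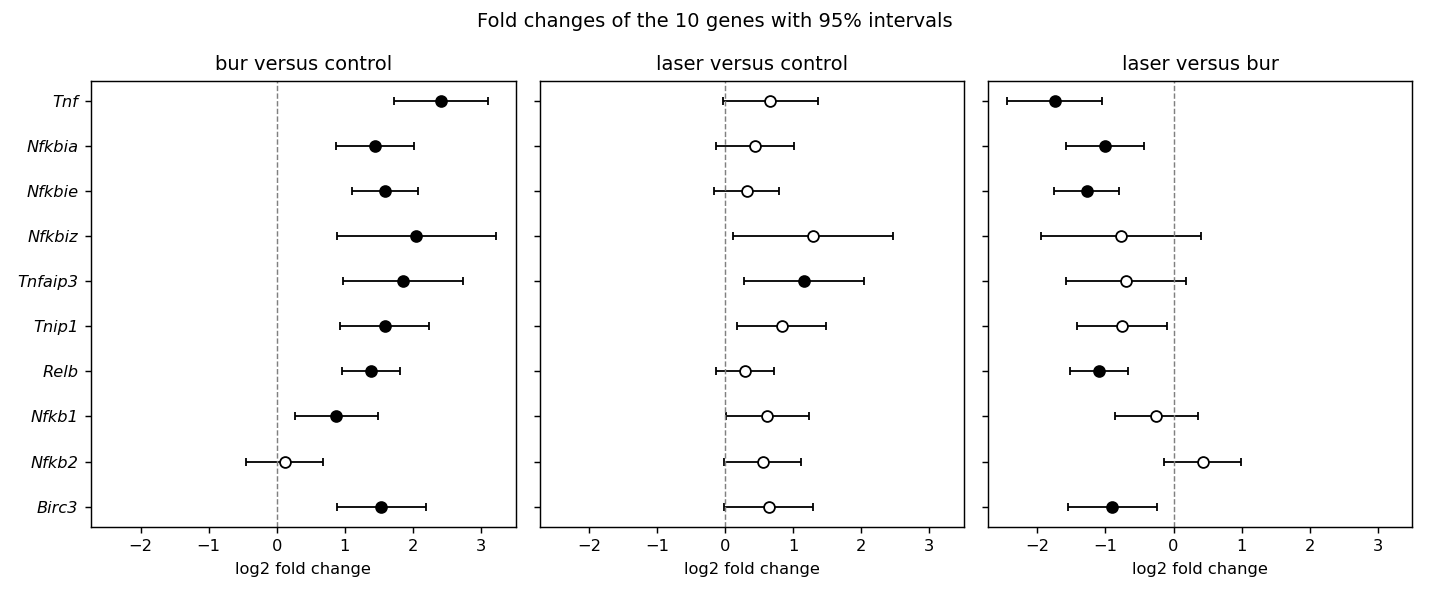
Log2 fold change (x axis) of the 10 genes with 95% intervals in bur versus control, laser versus control and laser versus bur; filled points were called at an adjusted p under 0.05. By the probe used for each, the points lie right of 0 for all 10 genes in both comparisons with control bone (Nfkb2 in bur versus control is -0.01 under 75th percentile scaling and -0.06 without bur 1), with 9 filled for bur and 1 for laser, and left of 0 for 9 genes in laser versus bur, 5 of them filled.

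Laser against bur is the direct test of whether the 2 ways of cutting bone differ. Of the 10 genes 5 were lower in laser bone (Tnf, Nfkbia, Nfkbie, Relb and Birc3), none was higher, and 5 were not called. Over all genes 14.2% were called lower and 11.6% higher, 25.8% in all. The median log2 fold change was -0.83, beside -0.06 over all genes. In 6 genes, those 5 and Tnip1, every laser array lay below every bur array, which held for 19.6% of all genes. Slide and treatment cannot be told apart here.

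Tnf fell by 1.75 ± 0.32 on the log2 scale and was thus 3.36-fold lower in laser bone, with laser arrays at 8.78 or less and bur arrays at 9.22 or more. The adjusted p was 0.00244 from limma, and the exact permutation p was 0.0286, the smallest possible. Nfkbie fell by 1.28 (2.42-fold lower, adjusted p 0.00172) and Nfkbia by 1.01 (2.01-fold lower, adjusted p 0.0163). Their laser arrays reached 6.68 and 9.58 at most, against at least 7.21 and 9.82 on bur arrays.

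Relb, the alternative-pathway subunit, measured 8.15, 8.24, 8.05 and 8.23 on laser arrays, the tightest set of the 10 genes in that group. It fell by 1.09 ± 0.19 on the log2 scale relative to bur bone (2.13-fold lower, adjusted p 0.00216). Birc3 fell by 0.90 ± 0.30 (1.87-fold lower, adjusted p 0.0466), a call lost in 11 of 22 other settings. Without bur 1, 4 of the 10 genes were called.

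The other 5 genes were not called between laser and bur bone, which does not show that they were alike. Nfkb2 was the exception in sign, with a log2 fold change of 0.43 (95% interval -0.13 to 0.998, adjusted p 0.25). Nfkb1 had -0.26 (interval -0.87 to 0.36), Tnfaip3 -0.69 (-1.57 to 0.19), Nfkbiz -0.77 (-1.94 to 0.41) and Tnip1 -0.76 (-1.41 to -0.10, adjusted p 0.0855).

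Macrophage markers were lower in laser than in bur bone for 7 of 12 genes and higher for none, with sums of 49936 to 75350 on laser arrays, against 97936 to 136674 on bur arrays. Neutrophil markers went the other way in part, with 4 of 10 higher (S100a8, S100a9, Camp and Fpr1) and 1 lower (Csf3r). Ngp, Mpo, Elane, Cxcr2 and Mmp8 were not called. Their sums were 109042 to 156268 on laser arrays, against 39047 to 65725 on bur arrays. The bright genes S100a8, S100a9 and Camp weigh most in these sums, so the sums largely repeat those calls. Against control bone, laser bone had 5 macrophage markers higher and none lower, with sums of 49936 to 75350, against 55560 to 84874 on control arrays. Lyz2, which weighs most in that sum, averaged 15.39 on laser and 15.77 on control arrays and was not called (adjusted p 0.175 from limma). Neutrophil markers had 4 of 10 higher and none lower there, the same 4 genes. Ngp, Mpo, Elane, Cxcr2, Csf3r and Mmp8 were not called. The sums were 109042 to 156268 on laser arrays, against 58467 to 81577 on control arrays, with no overlap. All 8 erythroid markers were lower in laser than in control bone, with sums of 53072 to 69021 on laser arrays, against 150912 to 177198 on control arrays, and none of the 8 was called between laser and bur bone. Over all genes, 11.6% were called higher and 14.2% lower in laser against bur, and 18.3% and 16.2% in laser against control. The part of these cell types in the levels of the 10 genes was not tested.

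Several probes read the same gene in 3 cases and did not always give the same answer. Over all kept probes 20.4% were called in bur against control, 32.8% in laser against control and 27.3% in laser against bur. For Tnfaip3, the probe A_44_P762190 used above was the brighter, and the other, A_43_P22049, was called higher in bur than in control bone too (log2 1.08, adjusted p over probes 0.00566). In laser against control bone the second probe had a log2 fold change of -0.37 (adjusted p 0.207), on the other side of 0 from the first. It measured 3.86, 3.45, 3.58 and 3.45 on laser arrays, against 4.13, 3.84, 4.19 and 3.68 on control arrays. The rise of Tnfaip3 after laser ablation thus rests on 1 probe. In laser against bur bone the second probe was called lower (log2 -1.46, adjusted p 0.00058) where the first was not. Neither probe has a position in the deposited annotation.

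Relb was read by 4 probes on the minus strand of chromosome 1 (rn4). The probe used above lies at chr1:78915593-78915652. A probe at chr1:78916328-78916387 was well above background on 2 bur, 4 laser and no control arrays, with means of 3.90 in bur, 3.72 in laser and 2.76 in control bone. With control arrays raised to the limit where they read below it, laser bone stood 1.86-fold above control bone by this probe. That fold is not a bound. Controls 1, 3 and 4 read 2.57, 2.84 and 2.78, above their limits of 2.26, 2.02 and 2.41, and were still dim. The probe passed the filter on dim probes mainly through its laser arrays, so the fold supports nothing and no test is given. For bur bone no such fold is given, since 2 of its arrays were dim as well. Another probe, some kilobases away at chr1:78920771-78920830, was bright on all 12 arrays and flat, with log2 fold changes of 0.00 in bur against control, 0.03 in laser against control and 0.03 in laser against bur. The last was well above background on 3 arrays and was not tested. The deposited annotation gives each of the 4 probes a transcript identifier of its own.

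For Nfkb1 the probe used lies at chr2:233091704-233091763 and a second spans chr2:233100929-233107175 (rn4, minus strand). The second had a log2 fold change of 0.90 in bur against control, close to the first, but with a wider spread and no call (adjusted p 0.219). It had -0.54 in laser against control bone (adjusted p 0.427), on the other side of 0 from the first at 0.62, and neither was called. In laser against bur bone it was called lower (log2 -1.45, adjusted p 0.0485), where the first had -0.26. All bur and laser arrays read it well above background, and so did 2 of the 4 controls.

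**Figure D3:**
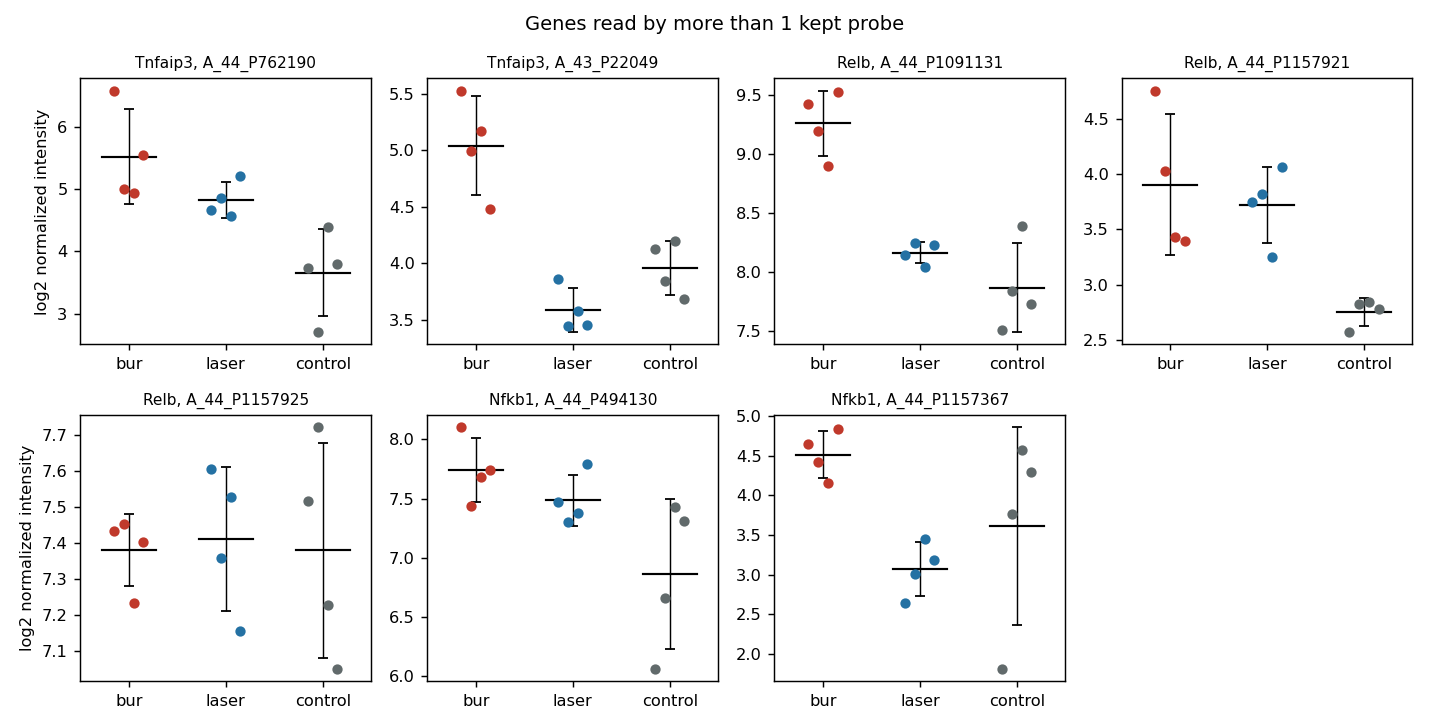
Level (y axis, log2 normalized intensity, a scale of its own for each probe) on the 4 bur, 4 laser and 4 control arrays for the kept probes of Tnfaip3, Relb and Nfkb1, with group mean (bar) and SD (whisker). The last Relb probe drawn is flat between about 7.05 and 7.72, and the second Tnfaip3 probe has 3 of its 4 laser arrays below every control array.

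The 10 genes varied together from array to array. Over all 12 arrays the median Pearson correlation of the 45 pairs was 0.811, which the shared group differences alone can give. Deviations from the group means correlated with a median of 0.553 and were above 0 in all 45 pairs (0.005 to 0.916). The arrays share slides and the normalization, so these are descriptions without a test. Correlations between pairs of other genes were not computed, so how common such values are on these arrays is not known. The 5 genes outside the loop whose level followed that of Tnf most closely over the 12 arrays were Icam1 (r 0.989), Rhbg (0.982), Slc11a1 (0.977), Hk2 (0.977) and Gpnmb (0.975). Icam1, an adhesion molecule that binds leukocytes, measured 10.51, 9.97, 9.40 and 9.98 on bur arrays, 8.51, 8.29, 8.26 and 8.75 on laser arrays and 7.75, 7.57, 8.22 and 8.13 on control arrays. Its log2 fold change was 2.05 in bur against control, 0.53 in laser against control and -1.51 in laser against bur. The 5 genes were picked for following Tnf on these same arrays. Sharing the order of groups of Tnf is therefore built into the choice and is not a result.

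Around the loop, 4 lists of pathway genes were followed. Their counts stand beside 13.7% of all genes higher and 9.74% lower in bur against control, 18.3% and 16.2% in laser against control, and 11.6% and 14.2% in laser against bur. The list medians in laser against control were -0.04, -0.25, -0.05 and 0.38 in the order given here, beside 0.01 over all genes. Their counts in bur against control bone moved with the scaling of the arrays: under 75th percentile scaling the 4 lists, in the order given here, had 5, 3, 3 and 8 genes higher and 1, 0, 1 and 1 lower. Without controls 1 and 4 they had 2, 3, 2 and 7 higher and 0, 0, 1 and 0 lower. In the first, 14 genes of TNF receptor signalling, 5 rose and none fell in bur against control bone, with a median log2 fold change of 0.43. Adam17, the protease that sheds TNF from the cell surface, rose 3.01-fold (adjusted p 0.00109). Tnfrsf1b, the second TNF receptor, rose 2.82-fold (adjusted p 0.00246) and Traf1, an adaptor of that receptor, 2.63-fold (adjusted p 0.0103). The first receptor, Tnfrsf1a, had 1.46-fold (adjusted p 0.0585), and the adaptor Tradd rose 1.5-fold (adjusted p 0.028).

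In laser against control bone 2 of these 14 genes rose and 2 fell, both shares lying under the 18.3% and 16.2% of all genes. Adam17 rose 1.72-fold (adjusted p 0.0253) and Tnfrsf1a 1.5-fold (adjusted p 0.0354). The ubiquitin ligase Birc2, the sister gene of Birc3, was 1.45-fold lower (adjusted p 0.0128) and Traf3, which restrains the alternative pathway, 1.40-fold lower (adjusted p 0.018). A dimmer Birc2 probe was called in the opposite direction (log2 0.96, adjusted p 0.0474), and a second Traf3 probe had a log2 fold change of 0.90 without a call. Between laser and bur bone 7 of the 14 were lower and none higher, Tnfrsf1b by 3.78-fold (adjusted p 0.00044).

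Of 12 genes of the IKK kinases and the Rel core, 6 rose and none fell in bur against control bone. Map3k14 encodes NIK, the kinase that starts the alternative pathway. It rose 3.96-fold (adjusted p 0.00771), or 2.88-fold with the 2 dim control arrays raised to the limit. Bcl3, a nuclear IkB protein, rose 2.60-fold (adjusted p 0.00629), Nfkbid, another, 1.88-fold (adjusted p 0.0105), and the Rel subunit gene Rel 1.63-fold (adjusted p 0.0174). The other 2 kept Nfkbid probes were not called, with log2 fold changes of 0.99 and -0.89 (adjusted p over probes 0.149 and 0.256). A second Bcl3 probe was called higher in bur bone too (log2 2.30, adjusted p over probes 0.00268). It was also called higher in laser against control bone (log2 1.23, adjusted p over probes 0.0327), where the probe used had 0.32 without a call. In laser against control bone Map3k14 rose 2.55-fold (adjusted p 0.033), or 1.86-fold with the dim arrays raised, while Tab2, an adaptor of the kinase upstream of IKK, was 1.95-fold lower and Chuk, the IKK alpha gene, 1.78-fold lower (adjusted p 0.000495 and 0.000977). A dimmer Chuk probe was called lower as well and another was not. Between laser and bur bone 6 of the 12 were lower and none higher.

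Of 13 other brakes on the pathway 12 were tested, Tnip3 having no kept probe. By the probes used, 2 rose and 1 fell in bur against control bone. Zc3h12a encodes an RNase that cuts cytokine transcripts, and it rose 4.26-fold (adjusted p 0.00578), or 4.04-fold with the 2 dim control arrays raised. Tnip2, the ABIN-2 gene, rose 2.69-fold (adjusted p 0.00163), while Rnf11, a partner of A20, was 2.08-fold lower (adjusted p 0.00153). In laser against control bone none rose and 3 fell by the probes used. These were Rnf11 at 2.44-fold lower (adjusted p 0.000266), Irak3, which dampens Toll-like receptor signals, at 1.45-fold lower (adjusted p 0.0341) and Commd1 at 1.27-fold lower (adjusted p 0.0128). A second Rnf11 probe was called lower in laser (log2 -0.68, adjusted p over probes 0.0362) and not in bur bone (log2 -0.59, adjusted p 0.0824). A second Irak3 probe was not called. A second Itch probe and a second Otulin probe were called higher in laser bone (log2 1.45 and 0.52, adjusted p over probes 0.0128 and 0.0317). Both were called higher in bur bone too (log2 1.28 and 1.08, adjusted p over probes 0.0349 and 0.00163). Another Otulin probe was not called in either. Between laser and bur bone 5 of the 12 were lower and none higher.

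Of 20 NF-kB target genes outside the loop, 10 rose and none fell in bur against control bone, with a median log2 fold change of 0.63. Ptgs2, the inducible cyclooxygenase of prostaglandin synthesis, rose 4.68-fold (adjusted p 0.000769), Icam1 4.13-fold (adjusted p 0.000366), the stress gene Gadd45b 2.67-fold (adjusted p 0.00129) and the mitochondrial superoxide dismutase Sod2 2.36-fold (adjusted p 0.00175). In laser against control bone 5 rose and 1 fell. Ptgs2 rose 2.69-fold (adjusted p 0.00462), and all 3 of its probes were called in both comparisons. Cd40, a receptor of the TNF receptor family, rose 3.20-fold (adjusted p 0.00103), but its other 2 kept probes had log2 fold changes of 0.03 and 0.15 without a call. Bcl2l1, which protects cells from death, was 2.69-fold lower (adjusted p 0.000287) by the probe used, and its other 3 kept probes were not called.

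Il6, the cytokine that needs IkB zeta for full induction, was well above background on 4 laser arrays, 1 bur array and no control array. With the dim control arrays raised to the limit, laser bone stood 1.91-fold above control bone, from measured means of 3.38 and 0.62. That is not a bound, since a signal can read above the limit and still be dim. The gene passed the filter on dim probes through its laser arrays, where it is high, so the 1.91-fold difference supports nothing. The same holds for its calls in both comparisons with control bone, which are among the 10 and the 5. In laser against bur bone 8 of the 20 targets were lower and 1, Cd40, higher. Ptgs2 was not called between laser and bur bone by the probe used (log2 -0.80, adjusted p 0.0777), whereas 1 of its other 2 kept probes was called lower (log2 -1.73, adjusted p over probes 0.00193).

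**Figure D4:**
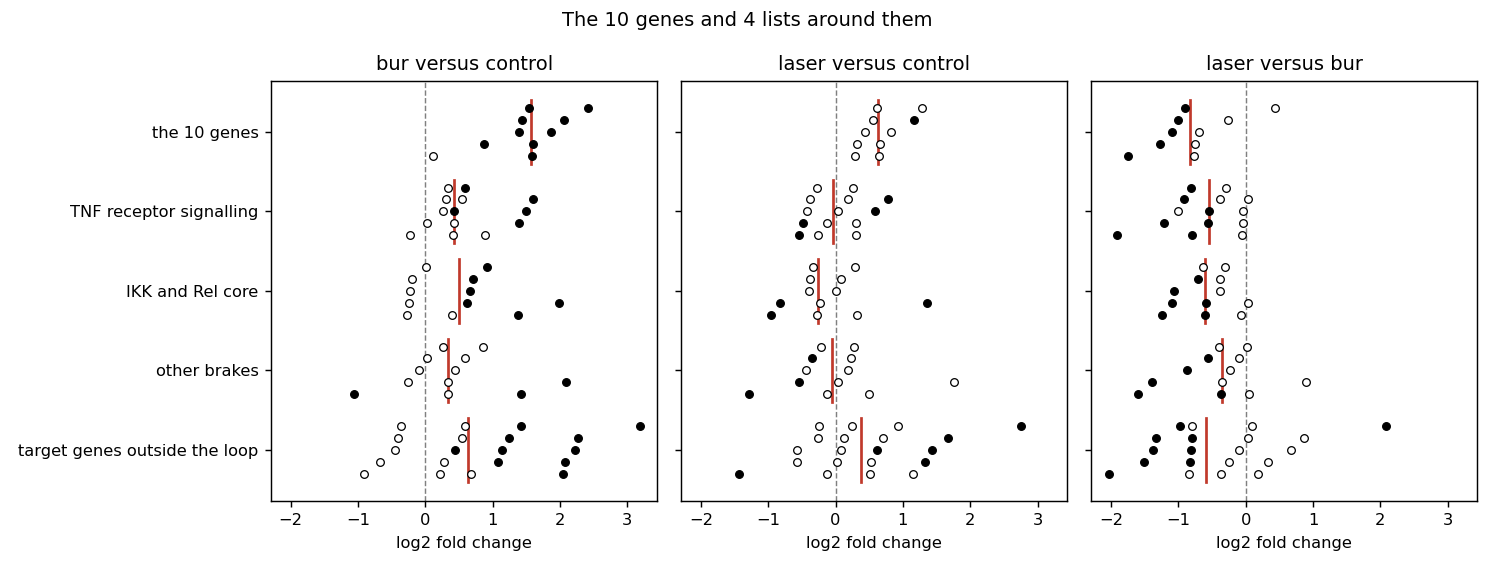
Log2 fold change (x axis) of every tested gene of the 10-gene loop and of 4 lists around it in the 3 comparisons, 1 point per gene, filled where called; the red bar is the median of the list. In bur versus control the medians run from 0.33 to 1.56 and the 10 genes have the highest, beside 0.08 over all genes.

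Across 22 other settings of the processing (21 for Tnfaip3 and Nfkbiz, which one filter removes), Tnf kept its call in bur against control and in laser against bur bone and stayed uncalled in laser against control bone. Its log2 fold change ran from 2.08 to 2.66, from -1.99 to -1.53 and from 0.47 to 0.88 in these comparisons. Nfkbia, Nfkbie, Tnfaip3, Tnip1, Relb and Birc3 were also called higher in bur than in control bone under every setting that held them. Nfkbia and Nfkbie were lower in laser than in bur bone under every setting, and Relb under all but the mean of its probes.

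**Figure D5:**
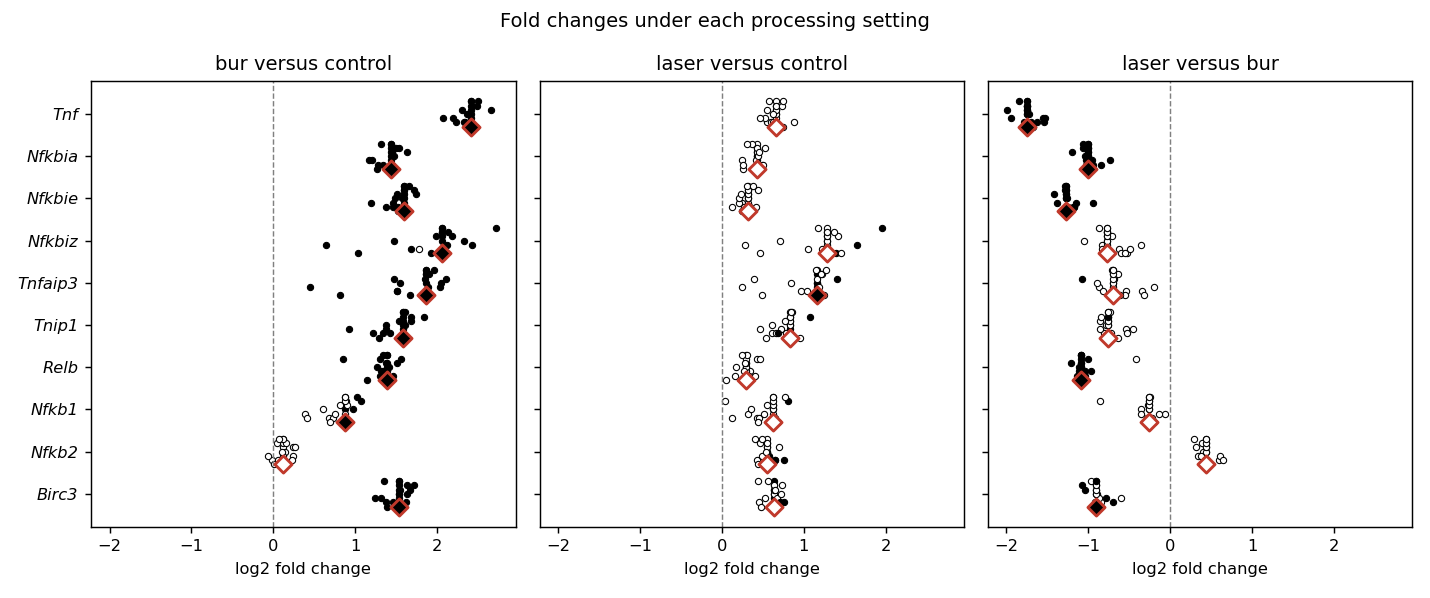
Log2 fold change (x axis) of each of the 10 genes under the processing used (red diamond) and under each other setting (small points, including each array left out in turn), in the 3 comparisons; filled symbols were called. Tnf stays between 2.08 and 2.66 in bur versus control, and the dim genes Nfkbiz and Tnfaip3 spread most, from 0.64 to 2.72 and from 0.45 to 2.10.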

How the data were processed

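The deposited scanner files give an intensity for each spot. The submitters' processing notes name Agilent Feature Extraction, version 11.0.1.1, and the processed signal is background-subtracted, per the file headers. Values in the authors' deposited expression table are on a log2 scale. Their deposited comparison tables hold a log2 fold change with its p-value, raw and adjusted. How probes map to rn4 is as the file headers give it.

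From the deposited intensity, control and outlier spots were left out, log2 of the processed signal was quantile normalized between the 12 arrays, and spots of 1 probe were averaged. Of 45598 probes, 27196 were well above background on at least 4 arrays. A gene took its kept probe of highest mean. All arrays entered 1 fit with limma 3.58.1 (R 4.3.3), which was tested on simulated data, with Benjamini-Hochberg adjustment over 16382 genes at 0.05. Probe adjustment ran over 27196 probes. No spot was saturated, and the number of arrays limits the precision. Where no array of a group read a probe well above background, the fold is given with its dim arrays raised. Each was raised to the lowest signal that was well above background on it, or kept if higher. Such a fold is not a bound, because a dim array can read above that limit. Single dim arrays were raised likewise where stated, a choice made after seeing the data.

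The 10 genes and all lists were chosen with earlier results of these data known. Besides the 10 genes, named genes were the 4 of smallest p per list in each comparison with control bone and the 5 most correlated with Tnf. Genes of the annotation were updated to RefSeq symbols of GRCr8; none of the 10 changed name. Alternatives covered normalization, background, filter, probe choice, arrays in the fit, block, weights, the authors' values and each array left out.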

Additional observations from a re-analysis of the deposited data

How the results depend on the processing

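Replicate numbers mark the slide row and were also fitted as a replicate block. Same-numbered arrays of different groups deviated from their group means with correlations of -0.105 to 0.350, 7 of 12 pairs above 0.1, and 8 of 12 arrays correlated best with their own number. Under the block 3990, 5934 and 4406 genes were called in bur against control, laser against control and laser against bur, where 3837, 5637 and 4224 were called without it. Of the 10 genes 8, 1 and 5 were called, Nfkb1 being lost in bur against control (adjusted p 0.0509).

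With each array left out in turn, the 10 genes gave 7 to 9 calls in bur against control, 0 to 3 in laser against control and 4 to 5 in laser against bur. In laser against control 0 of the 10 were called with 75th percentile scaling, without the filter on dim probes and with the mean of a gene's probes, 2 with only both groups in the fit, and 3 with array weights and with the authors' deposited values. Over all genes in bur against control, 2480 were called with only both groups in the fit and 2345 without controls 1 and 4, of which 1120 were higher and 1225 lower. Nfkb2 changed sign there with 75th percentile scaling (-0.0145) and without bur 1 (-0.0605, in a range of -0.0605 to 0.269 with each array left out), and stayed uncalled. The share of calls that were higher was 58.4%, 53.0% and 44.9% in the 3 comparisons, and 42.3%, 46.4% and 52.1% with 75th percentile scaling, which moved the median gene in bur against control to -0.08, beside 0.08 with quantile normalization. With probes well above background on all 12 arrays it was 32.7% in laser against bur. The cause of these shifts was not tested.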

Other observations

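Of the 42 sets of 4 arrays examined for the 14 kept probes, none held an array that stood apart by Dixon's criterion. With 4 values only a very wide gap meets it, so this does not show that the arrays were free of outliers. Nfkbiz on control 2, at 1.98 where the other controls read 3.94 to 4.81, was not flagged. The dim second Tnf probe, kept out of every test, had levels of 3.29 to 4.32 on bur arrays, 1.12 to 3.44 on laser arrays and 0.96 to 3.01 on control arrays, and was well above background on 1 bur array, 2 laser arrays and no control array. Of the genes most like Tnf, Gpnmb, a glycoprotein of macrophages and osteoclasts, had log2 fold changes of 2.07 in bur against control, 0.34 in laser against control and -1.73 in laser against bur. Slc11a1, a metal transporter of phagocytes, had 2.47, 0.47 and -2.0, and the hexokinase gene Hk2 had 1.66, 0.53 and -1.12. These genes were picked by their correlation with Tnf, so the likeness of their fold changes to those of Tnf is not a result. The RefSeq table held no promoter for Relb or Birc3.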
